A study of Mus musculus with 35 samples.

Results

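The comparison described here is of whole lung at the day 5 label after naphthalene against untreated lung of the same day label, both in mice of the RORaf/fIl7riCre genotype (KO in the sample titles). It holds 6 of the 35 libraries of the series, chosen by title: 3 treated and 3 untreated, numbered as replicates 1 to 3 in the labels. In RORaf/f mice the Rora gene carries loxP sites. In the mice used here Cre recombinase is driven by Il7r, and it recombines Rora in Il7r-expressing cells and their descendants, so other lung cells keep the gene. Treated and untreated mice of this comparison share both alleles. The series also holds RORaf/f mice (control), and day labels 2 and 7. The label of the control names no Cre, so RORa loss and Cre at Il7r cannot be told apart in any comparison of genotypes. The mice were 14 days old per the series design, with no separate age for each day label. The labels do not say whether each library is a separate animal, and p-values then measure the spread between these libraries.

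Naphthalene injures the lung because club cells, the secretory cells of the small airways, turn it into reactive products with cytochrome P450 enzymes. Club cells are marked by the secretoglobin Scgb1a1. Surviving club cells and basal cells restore the airway, and new multiciliated cells arise from progenitors that switch on the Geminin-family regulators Gmnc and Mcidas, then Ccno and Foxj1, and last the genes of the axoneme, the motile core of the cilium. RORa is a nuclear receptor needed for the development of group 2 innate lymphoid cells (ILC2), which express Il7r and make type 2 cytokines in the lung. Expression is given as CPM, counts scaled to a common library size, and as the log2 change, naphthalene minus untreated, with a standard error (SE). The SE is the size of the log2 change divided by the square root of the F statistic of edgeR's quasi-likelihood test. It follows from that test, which draws on all 35 libraries, and is no separate measure of spread. A gene is called when its adjusted p is below 0.05 in edgeR's quasi-likelihood test, with the Benjamini-Hochberg method applied across the 20606 genes tested, and each adjusted p below comes from that test. CPM do not account for gene length, so levels of different genes are not compared.

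The 6 libraries hold 14687468 to 19767958 counts, so that 1 read equals 0.0527 to 0.065 CPM. Treated replicate 1 stood apart from treated replicates 2 and 3, with Spearman correlations of 0.966 and 0.974 with them, against 0.982 between them. For 225 of the 272 called genes it was the treated library closest to the untreated ones. This held for 205 of the 235 genes called higher and 20 of the 37 called lower. These genes were chosen from the same libraries, and the share over all tested genes was not computed. The ribosomal Rn18s-rs5 share of treated replicate 1 was 2.33% of counts against 0.865% to 2.01% in the other 5 libraries. Its haemoglobin share was 0.516%, within their 0.387% to 0.964%, and its mitochondrial share 1.41%, within their 0.953% to 1.57%. The library names carry a letter whose meaning the labels do not give: b for treated replicates 1 and 3, i for treated replicate 2, f for untreated replicates 1 and 3 and o for untreated replicate 2. Letter and treatment cannot be told apart here. Counts of calls without single libraries are therefore given beside the results.

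The sequences that follow are the 250 bases before the gene start of 3 genes of the cilium programme that were called higher, shown because the promoter of each holds a match to the X-box, the DNA motif of the RFX factors that act on cilium genes. They come from RefSeq's GRCm38.p6 promoter table, on the plus strand, 5′ to 3′, with the match in capitals, at chr1:171122795-171123044 for Cfap126, chr17:25471340-25471589 for Tekt4 and chr13:112987552-112987801 for Ccno.
Cfap126: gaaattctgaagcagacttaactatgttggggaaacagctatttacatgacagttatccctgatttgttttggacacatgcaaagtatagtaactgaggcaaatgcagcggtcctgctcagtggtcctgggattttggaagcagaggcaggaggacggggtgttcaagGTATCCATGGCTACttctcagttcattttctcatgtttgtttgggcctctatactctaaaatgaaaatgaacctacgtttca
Tekt4: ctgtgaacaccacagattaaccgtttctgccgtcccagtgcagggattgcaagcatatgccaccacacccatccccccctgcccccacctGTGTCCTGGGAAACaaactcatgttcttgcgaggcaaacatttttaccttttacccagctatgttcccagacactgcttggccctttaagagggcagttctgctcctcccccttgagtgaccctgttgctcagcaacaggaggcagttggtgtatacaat
Ccno: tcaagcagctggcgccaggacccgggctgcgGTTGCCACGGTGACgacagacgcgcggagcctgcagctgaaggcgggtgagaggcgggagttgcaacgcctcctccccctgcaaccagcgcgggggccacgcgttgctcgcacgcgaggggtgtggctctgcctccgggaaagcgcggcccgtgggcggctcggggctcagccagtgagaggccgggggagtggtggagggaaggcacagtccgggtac
Cfap126 is a protein of cilia and basal bodies, Tekt4 a filament protein of axonemal microtubules, and Ccno a cyclin-like protein needed to make the many basal bodies of a multiciliated cell. The motif searched was GTNNCC, any 2 bases, and then GGNNAC, which reads the same on both strands. It was found before the start of 2.2% of 12971 tested genes with a promoter in the table. It was found in 2 of 19 motile cilium genes with a promoter there (10.5%) and in 2 of 10 regulators of multiciliogenesis (20%). Of the called members of both lists, 11 had a promoter there and 3 held the motif (27.3%). Among the 169 genes called higher with a promoter there, 9 held it (5.33%). The shorter single arm GTTGCC was searched on both strands and allowed to overlap the longer motif. It was found in 12.5% of tested genes, in 8 of the 19 cilium genes (42.1%) and in 4 of the 10 regulators (40%). Among the genes called higher 23.7% held it, and among the called members of both lists 4 of 11 (36.4%). A match describes these letters only.

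At day 5, 272 of 20606 genes were called (1.32%), 235 of them higher (1.14%) and 37 lower (0.18%) after naphthalene. The change was 2-fold or more in 197 of the higher and 31 of the lower genes, and 4-fold or more in 53 and 11. An unadjusted p below 0.05 was found for 2636 genes. The treated and untreated libraries did not overlap for 2342 of all tested genes (11.4%), and for 214 of the genes called higher and 36 of those called lower. The median change over all tested genes was -0.00985.

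**Figure D1:**
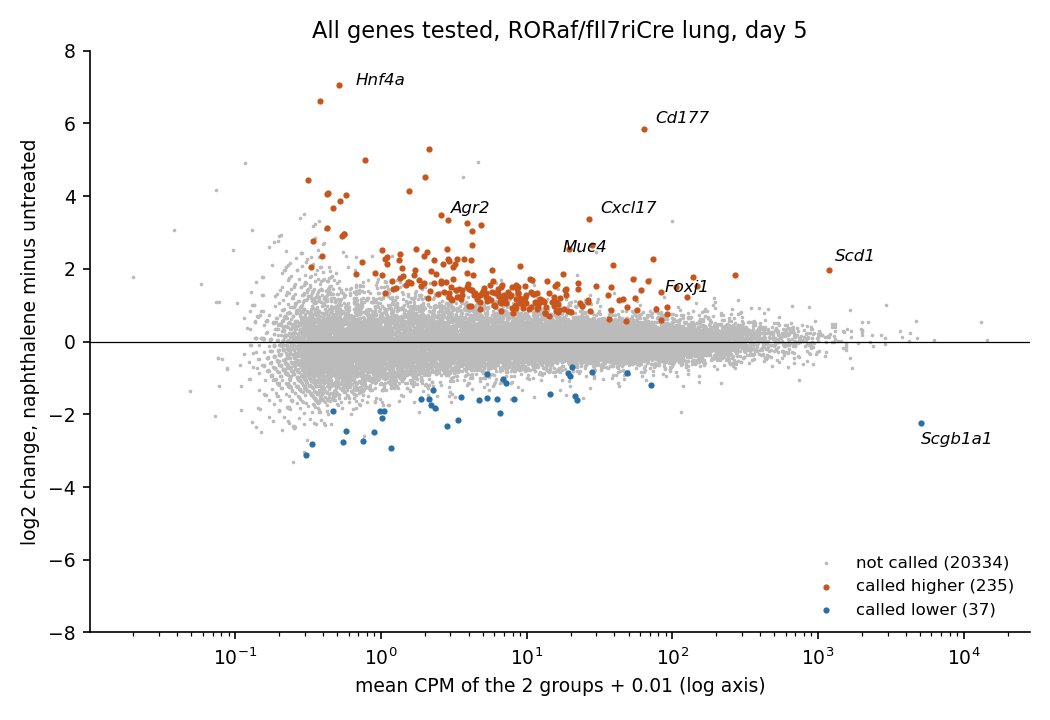
Log2 change (naphthalene minus untreated, y axis) against the mean CPM of both groups plus 0.01 (x axis, log scale) for the 20606 genes tested at day 5 in RORaf/fIl7riCre lung, with genes called higher in orange (235) and lower in blue (37). Scgb1a1 lies at the far right among the genes called lower, and most called genes lie above 0.

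The number of calls depended on single libraries. It was 903 without treated replicate 1 (621 higher and 282 lower, with 258 of the 272 among them), 68 and 119 without treated replicates 2 and 3, and 121, 95 and 175 without untreated replicates 1, 2 and 3. Calls for 10 named genes held under all 17 alternatives tried: Scgb1a1, Cd177, Cxcl17, Aoc1, Muc4, Wfdc3, Wfdc13, Ghrl, Ereg and Psapl1.

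Scgb1a1 (ENSMUSG00000024653), the main secreted protein of club cells, was at 7690, 8390 and 9110 CPM in the untreated lungs and at 1840, 1720 and 1820 CPM in the treated ones. All 3 treated libraries were far below all 3 untreated ones, replicate 1 included. In RNA from whole lung, fewer cells of a type and less RNA per cell cannot be told apart. The log2 change of Scgb1a1 was -2.23 ± 0.27 (SE, n = 3 per group, edgeR adjusted p = 7.97e-06). All 20 genes of the club cell list were tested, and 3 fell while none rose. Pon1, a paraoxonase, was at 14.9, 8.77 and 13 CPM against 3.74, 4.38 and 4.23 CPM (-1.57 ± 0.29, edgeR adjusted p = 0.00223). The other 17 members did not pass the test, and the list's median change was -0.0936. Cyp2f2, the P450 that activates naphthalene in mouse club cells, was at 472, 411 and 673 CPM untreated and 298, 539 and 479 CPM treated, with overlapping groups (-0.24 ± 0.27, edgeR adjusted p = 0.719). Scgb3a2, another secretoglobin of airway secretory cells, was at 396, 383 and 464 CPM untreated and 705, 735 and 539 CPM treated (0.67 ± 0.35, edgeR adjusted p = 0.423). The treated libraries were above the untreated ones for Scgb3a2 but the change did not pass the test. Bpifa1, an antimicrobial secreted protein, was at 14.4, 3.0 and 9.9 CPM against 14.4, 88.7 and 48.0 CPM, with treated replicate 1 level with the untreated (2.47 ± 0.94, edgeR adjusted p = 0.262). Without treated replicate 1, 5 members of the list were called, and without any other single library of the comparison 3 were.

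**Figure D2:**
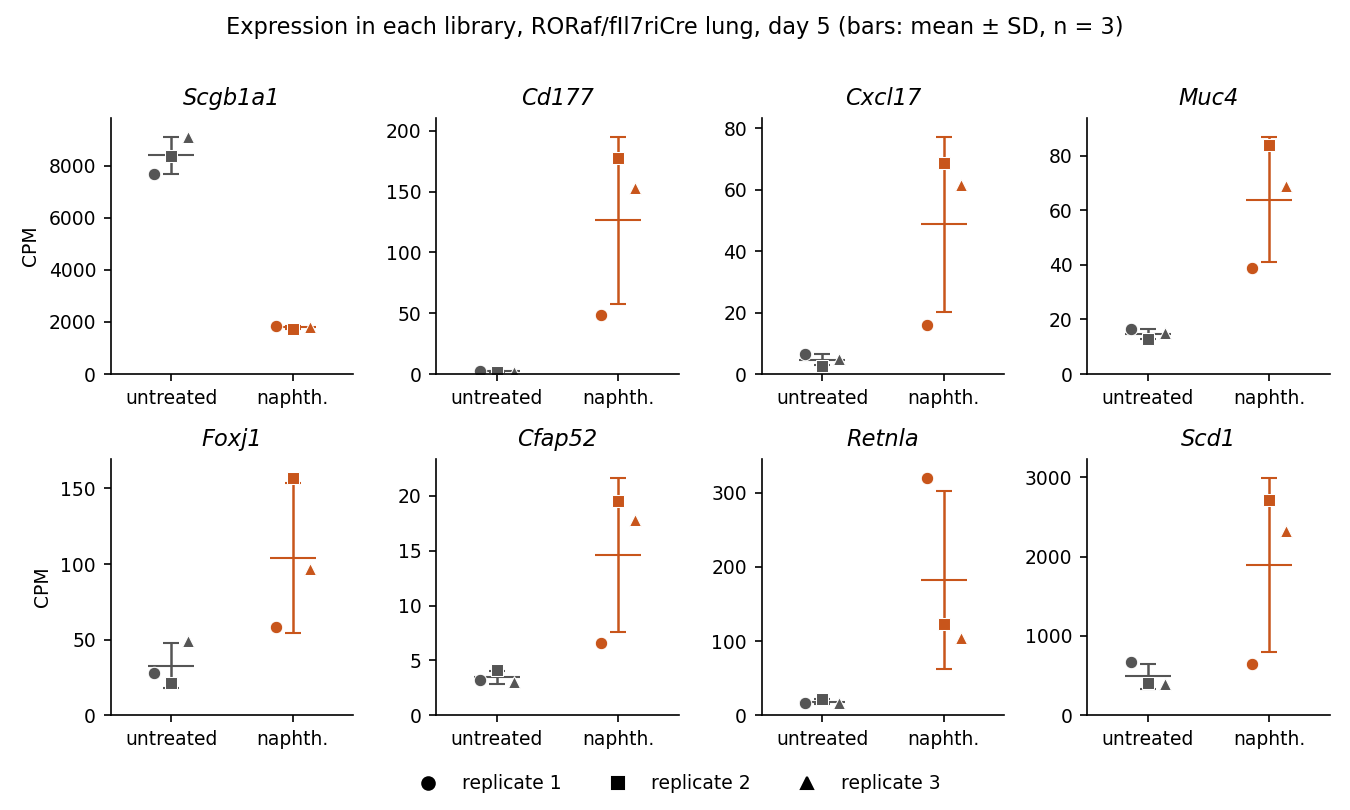
CPM of 8 genes in each of the 6 libraries (y axis from 0), untreated in grey and naphthalene in orange, with circles, squares and triangles for replicates 1, 2 and 3 and bars for the mean ± SD (n = 3). Scgb1a1 is low in all 3 treated libraries, while treated replicate 1 is the lowest treated library for Cd177, Cxcl17, Muc4, Foxj1, Cfap52 and Scd1 and the highest for Retnla.

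Among regulators of multiciliogenesis, 2 of 12 were called higher and none lower. Foxj1 (ENSMUSG00000034227), the factor that switches on the genes of motile cilia, was at 27.8, 21.3 and 49.4 CPM untreated and 58.2, 157 and 97.0 CPM treated. The groups did not overlap, and the spread among treated lungs was wide (1.66 ± 0.38, edgeR adjusted p = 0.0168). Ccno was at 2.80, 2.70 and 3.84 CPM against 5.17, 10.3 and 6.71 CPM (1.24 ± 0.27, edgeR adjusted p = 0.0127). Mcidas, Cdc20b and Gmnc did not pass the test. Mcidas was at 1.3, 0.841 and 0.945 CPM against 1.96, 2.64 and 2.42 CPM (1.19 ± 0.45, edgeR adjusted p = 0.247). Cdc20b, whose locus holds Ccno and Mcidas as neighbours and which acts in basal body making, was at 0.715, 0.360 and 0.445 CPM against 0.713, 1.95 and 2.14 CPM (1.66 ± 0.52, edgeR adjusted p = 0.13). Gmnc, the first of the regulators to act, was lower in all treated libraries, at 1.43, 0.961 and 0.945 CPM against 0.416, 0.527 and 0.620 CPM, without passing the test (-1.07 ± 0.47, edgeR adjusted p = 0.334). Without treated replicate 1, 4 regulators were called. Without treated replicate 2, untreated replicate 1 or untreated replicate 2 none was, without treated replicate 3 there was 1, and without untreated replicate 3 there were 2.

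Of the genes of the motile cilium itself, 11 rose and none fell. The list holds 25 genes, 24 of them tested, beside 1.14% of all tested genes called higher. Of the 24, 23 had a log2 change above 0, the median was 0.983, and in 21 every treated library was above every untreated one, which held for 5.81% of all tested genes. Cfap52, an axonemal protein inside the microtubule doublets, was at 3.19, 4.08 and 3.06 CPM untreated and 6.59, 19.5 and 17.8 CPM treated (2.09 ± 0.27, edgeR adjusted p = 2.47e-05). Cfap126 was at 8.52, 9.43 and 9.79 CPM against 17.8, 27.6 and 19 CPM (1.22 ± 0.18, edgeR adjusted p = 1.98e-04). Tekt4 was at 2.15, 2.70 and 2.61 CPM against 3.98, 8.38 and 6.65 CPM (1.35 ± 0.29, edgeR adjusted p = 0.0101). In these 3 genes treated replicate 1 was the lowest treated library and still above all untreated ones. The other called members were Rsph9, a radial spoke protein (1.27 ± 0.21), Dnah9, a heavy chain of the outer dynein arm (1.1 ± 0.19), Ccdc40, an assembly factor of the inner arms (1.06 ± 0.24), Drc1 of the nexin-dynein regulatory complex (1.2 ± 0.29), Dynlrb2, a dynein light chain (0.97 ± 0.22), and Tmem212, Fam183b and Cimap3 (1.09 to 1.34), with edgeR adjusted p from 8.05e-04 to 0.0241. Tppp3, a tubulin-binding protein of ciliated cells, was at 283, 309 and 431 CPM against 334, 578 and 440 CPM, and did not pass (0.40 ± 0.21, edgeR adjusted p = 0.416). The only member below 0 was Ccdc39 (-0.34 ± 0.35, edgeR adjusted p = 0.684). The count of called members was 14 without treated replicate 1, 6 without treated replicate 2, 6 without treated replicate 3 and 8 or 9 without single untreated libraries.

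**Figure D3:**
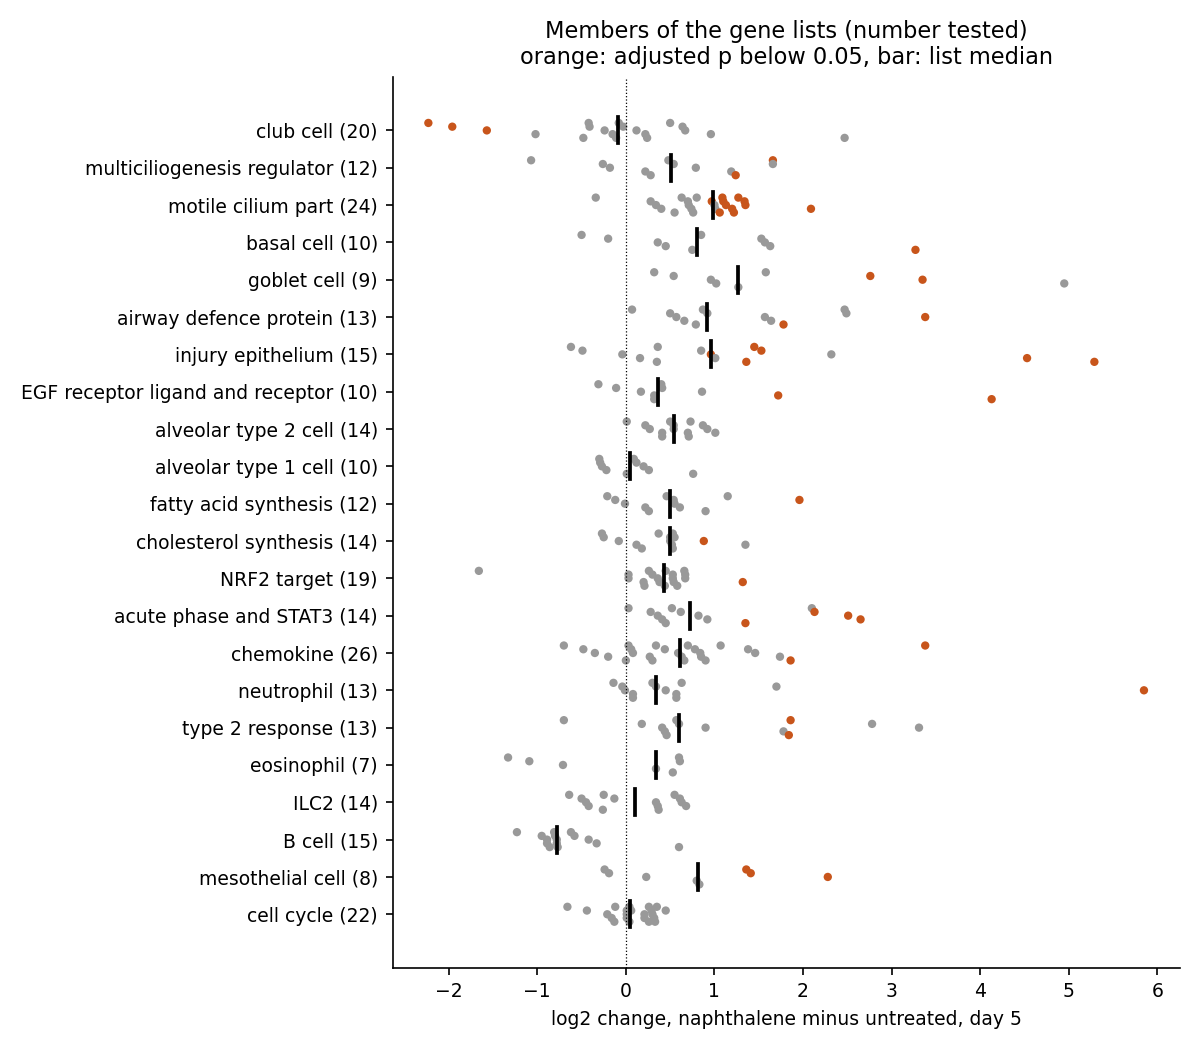
Log2 change at day 5 (x axis) of the tested members of 22 gene lists (rows, number tested in brackets), with called genes in orange, the others in grey and the list median as a black bar. Motile cilium parts lie to the right of 0 with 1 exception, B cell genes lie to the left with 1 exception, and alveolar type 2 genes lie to the right with no called member.

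Genes of mucous cells and of the airway surface were among the largest increases by the naming rule. Agr2, an endoplasmic reticulum protein needed to make mucins, was at 0.846, 0.240 and 0.445 CPM untreated and 3.86, 5.32 and 6.42 CPM treated (3.35 ± 0.56, edgeR adjusted p = 8.04e-04). Foxa3, a goblet cell transcription factor, was at 0, 0.120 and 0.111 CPM against 0.832, 0.527 and 0.394 CPM (2.76 ± 0.72, edgeR adjusted p = 0.0481). These were the 2 of 9 tested goblet cell genes that rose, all 9 were above 0 and the median was 1.27. Muc5b, a gel-forming airway mucin, was at 21, 12.6 and 14.0 CPM against 57.5, 37.9 and 19.2 CPM (1.27 ± 0.64, edgeR adjusted p = 0.409). Treated replicate 1 had the highest level, as it did for Clca1, a goblet cell secretory protein given here after its values were seen. Clca1 was at 0.390, 0.3 and 0.167 CPM untreated and 26, 0.580 and 0.225 CPM treated (4.95 ± 1.85, edgeR adjusted p = 0.252). The goblet cell list had 1 called member without each of the 6 libraries in turn, and that member was Agr2. Foxa3, with 35 reads over the 6 libraries, lost its call each time and also in DESeq2. It held its call in 4 of 16 alternatives, and Agr2 in 16 of 17. Muc4, a membrane-bound mucin of the airway surface, was at 16.4, 12.8 and 15.1 CPM against 38.8, 84.0 and 69.0 CPM (2.11 ± 0.23, edgeR adjusted p = 1.74e-06).

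Airway defence proteins had 2 of 13 tested members called higher, and all 13 were above 0 (median 0.919). Cxcl17 (ENSMUSG00000060188), a secreted mucosal protein, was at 6.50, 2.76 and 4.84 CPM untreated and 16.1, 68.6 and 61.5 CPM treated (3.38 ± 0.43, edgeR adjusted p = 1.5e-05). Lcn2, an iron-sequestering antibacterial protein, was at 64.5, 55.3 and 69.0 CPM against 88.6, 367 and 191 CPM (1.78 ± 0.44, edgeR adjusted p = 0.0373). In both genes treated replicate 1 lay between the untreated and the other treated libraries. Without treated replicate 1, 5 members were called, and without any other single library of the comparison 1 was. Wfdc3, of the whey acidic protein family, was at 0.976, 0.541 and 1.22 CPM against 4.87, 8.49 and 9.30 CPM (3.03 ± 0.32, edgeR adjusted p = 7.8e-07), and Wfdc13 of the same family changed by 2.26 ± 0.32 (edgeR adjusted p = 9.29e-05). Wfdc2 and Slpi, also of this family, were not called (0.79 ± 0.28 and 0.87 ± 0.28, edgeR adjusted p = 0.191 and 0.137). Aoc1, the histamine-degrading diamine oxidase, was at 0.976, 0.841 and 1.00 CPM against 6.36, 12.3 and 7.38 CPM (3.20 ± 0.37, edgeR adjusted p = 2.86e-06).

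Keratins and other markers of injured epithelium had 6 of 15 members called higher and none lower, with a median of 0.959. Krt8, a keratin of simple and transitional epithelium, was at 60.3, 57.4 and 68.9 CPM untreated and 65.8, 182 and 115 CPM treated (0.96 ± 0.24, edgeR adjusted p = 0.0371). Treated replicate 1 lay within the untreated range for Krt8 and for Krt19 (52.6, 41.7 and 46.3 CPM against 46.2, 185 and 130 CPM, 1.36 ± 0.34, edgeR adjusted p = 0.0379). Clu, a secreted chaperone, was at 77.9, 65.6 and 85.7 CPM against 111, 309 and 244 CPM (1.53 ± 0.25, edgeR adjusted p = 5.39e-04). Cldn4, a tight junction protein, changed by 1.45 ± 0.36 (edgeR adjusted p = 0.0317), and the rarely read genes Psapl1 and Prss22 by 4.53 ± 0.57 and 5.29 ± 0.89 (edgeR adjusted p = 1.23e-05 and 0.00107). Itgb6, the epithelial integrin that activates TGF-beta, was lower in every treated library, at 56.2, 42.2 and 44.9 CPM against 38.8, 31.3 and 31.9 CPM, without passing (-0.49 ± 0.23, edgeR adjusted p = 0.365). The list had 8 called members without treated replicate 1 and 3 without any other single library of the comparison.

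Of 10 tested basal cell genes 1 was called. Krt15, a keratin of basal cells, was at 0.781, 0.901 and 0.5 CPM untreated and 1.19, 7.22 and 12.7 CPM treated (3.27 ± 0.77, edgeR adjusted p = 0.022), and it lost its call without 5 of the 6 libraries in turn, treated replicate 1 being the exception. The defining basal genes Krt5, Krt14 and Trp63 were at or under 1.01 CPM in all 6 libraries and were not called. Among ligands and receptors of the EGF receptor family, 2 of 10 rose. Areg, a ligand made by epithelium and by ILC2, was at 6.50, 3.78 and 4.39 CPM against 8.67, 20.2 and 19.4 CPM (1.72 ± 0.37, edgeR adjusted p = 0.0121). Ereg, another ligand, was at 0.260, 0.0601 and 0.167 CPM against 1.60, 4.32 and 2.82 CPM (4.13 ± 0.58, edgeR adjusted p = 7.26e-05). Areg lost its call without treated replicates 2 and 3 and untreated replicates 2 and 3 in turn, which left Ereg as the 1 called member. None of 22 FGF, WNT and Notch genes was called (median 0.176), the nearest being Wnt7b, a ligand of airway epithelium (1.34 ± 0.36, edgeR adjusted p = 0.0574). Of 9 neuroendocrine genes 1 was called, Calca, which encodes calcitonin gene-related peptide (1.5, 0.901 and 1.22 CPM against 3.33, 5.85 and 5.75 CPM, 2.04 ± 0.40, edgeR adjusted p = 0.00546), a call lost without untreated replicate 2.

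None of the 14 alveolar type 2 cell genes was called, although all 14 log2 changes were above 0 (median 0.538). Their summed level was 19000, 15900 and 21300 CPM in the untreated lungs and 16900, 38000 and 30300 CPM in the treated ones. Treated replicate 1 was within the untreated range, and the other treated lungs were above it. Sftpc, the surfactant protein of these cells, was at 10400, 9190 and 12300 CPM against 9310, 20900 and 16200 CPM (0.54 ± 0.33, edgeR adjusted p = 0.496). Among genes of fatty acid synthesis 1 of 12 was called. Scd1, the stearoyl-CoA desaturase that makes monounsaturated fatty acids, was at 669, 400 and 396 CPM against 651, 2720 and 2320 CPM (1.96 ± 0.40, edgeR adjusted p = 0.00686), and its groups overlapped through treated replicate 1. Fdps, which makes farnesyl diphosphate, was the 1 of 14 cholesterol synthesis genes called (0.88 ± 0.22, edgeR adjusted p = 0.0324). Without treated replicate 1, 1 alveolar type 2, 4 fatty acid and 4 cholesterol genes were called. Fdps lost its call without each of the other 5 libraries, and Scd1 without treated replicate 2, untreated replicate 2 and untreated replicate 3, where those lists had 0 called members. Alveolar type 1 genes had no call among 10 and a median of 0.0502.

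Rora (ENSMUSG00000032238), the floxed gene, was at 53.4, 49.5 and 40.4 CPM in the untreated lungs and 41.6, 25.2 and 38.4 CPM in the treated ones (-0.45 ± 0.21, edgeR adjusted p = 0.361). In control lungs of day 5 it was at 42.8, 49.7 and 44.2 CPM untreated and 38.3, 38.4 and 41.5 CPM treated, and these ranges overlap those of the KO genotype. The level in whole lung therefore does not check the deletion in Il7r-expressing cells. Of 16 ILC2 genes 14 were tested and none was called in edgeR or in DESeq2 (median 0.101), and Il13 and Ccr8 had 9 and 7 reads over the 6 libraries. Il7r, the receptor subunit at whose locus Cre is expressed, was at 4.75, 4.86 and 5.12 CPM untreated and 11.2, 3.43 and 4.45 CPM treated (0.37 ± 0.42, edgeR adjusted p = 0.721). Treated replicate 1 was also the highest library for Il1rl1, the IL-33 receptor (2.67, 2.70 and 2.06 CPM against 6.89, 1.42 and 2.59 CPM), and for Il17rb, the IL-25 receptor (0.715, 1.02 and 1.00 CPM against 2.55, 0.791 and 0.902 CPM). Il5 was at or under 0.601 CPM in every library (-0.64 ± 0.79, edgeR adjusted p = 0.741). Gata3, the lineage factor of ILC2 and of helper T cells, was at 11.9, 17.8 and 9.40 CPM against 8.91, 10.2 and 10.1 CPM (-0.42 ± 0.30, edgeR adjusted p = 0.549). Among the other members, the negative changes were those of Icos (-0.50 ± 0.39), Nmur1 (-0.26 ± 0.55), Klrg1 (-0.25 ± 0.47) and Il2ra (-0.13 ± 0.44), and the positive ones those of Id2 (0.34 ± 0.18), Thy1 (0.36 ± 0.24), Csf2 (0.63 ± 0.30) and Il9r (0.68 ± 0.36). Of 8 eosinophil genes 7 were tested and none was called in edgeR or in DESeq2 (median 0.344). Siglecf, also a gene of alveolar macrophages, was at 5.98, 5.17 and 4.62 CPM against 4.69, 7.54 and 10.4 CPM (0.53 ± 0.27, edgeR adjusted p = 0.422), and Epx, the eosinophil peroxidase, had 8 reads over the 6 libraries. The remaining changes were -1.33 ± 0.73 for Ccr3, -1.09 ± 0.66 for Il5ra, -0.71 ± 0.72 for Prg2, 0.34 ± 0.21 for Ear2, 0.60 ± 0.43 for Alox15 and 0.61 ± 0.56 for Ear6.

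Genes known to respond to type 2 cytokines had 2 of 13 members called higher. Chil3, a chitinase-like protein of alveolar macrophages, was at 161, 97.0 and 93.0 CPM untreated and 211, 395 and 647 CPM treated (1.84 ± 0.35, edgeR adjusted p = 0.00332). Ccl17, a ligand of CCR4, was at 1.04, 0.961 and 1.06 CPM against 5.29, 3.16 and 2.76 CPM (1.86 ± 0.47, edgeR adjusted p = 0.0353). Retnla, the resistin-like alpha of macrophages and epithelium, was at 15.9, 22.2 and 16.9 CPM against 320, 123 and 104 CPM, and it missed the threshold (3.31 ± 0.86, edgeR adjusted p = 0.0508). Every treated library was above every untreated one in these 3 genes, and treated replicate 1 was the highest treated library for Ccl17 and Retnla. In control lungs of day 5 Retnla was at 70.8, 157 and 107 CPM without treatment and 92.7, 102 and 154 CPM after naphthalene, with the groups overlapping. The list had 1 called member without treated replicate 1, none without treated replicate 3 and 1 without each of the other 4 libraries, and Ccl17 lost its call without each of the 6.

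Cd177 (ENSMUSG00000052212), a surface glycoprotein known from neutrophils, had the smallest p of all genes. It was at 2.41, 2.10 and 2.06 CPM in untreated lungs and 48.7, 178 and 153 CPM in treated ones (5.85 ± 0.45, edgeR adjusted p = 1.07e-09). The other 12 tested neutrophil genes were not called, 10 of the 13 were above 0 and the list's median was 0.338. The medians in treated replicates 1, 2 and 3 were -0.072, 0.592 and 0.629. S100a9, an alarmin of neutrophils, was at 31.1, 38.7 and 29.9 CPM against 22.3, 50 and 53.6 CPM (0.34 ± 0.55, edgeR adjusted p = 0.815), and Ngp, a granule protein, changed by 0.63 ± 0.60 (edgeR adjusted p = 0.665), both given after their values were seen. The receptor genes Csf3r (33.6, 76.2 and 50.8 CPM against 56.1, 59.9 and 40.2 CPM, -0.04 ± 0.36, edgeR adjusted p = 0.972) and Cxcr2 (-0.14 ± 0.46, edgeR adjusted p = 0.917) lay within overlapping ranges. Elane and Mpo, enzymes of neutrophil granules, had 1 and 4 reads over the 6 libraries.

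Acute phase genes had 4 of 14 tested members called higher, with all 14 above 0 (median 0.72). Lrg1, a secreted leucine-rich glycoprotein, was at 5.92, 8.05 and 9.34 CPM untreated and 22.6, 80.2 and 43.6 CPM treated (2.65 ± 0.50, edgeR adjusted p = 0.00403). Saa3, a serum amyloid A, was at 0.390, 0.901 and 2.22 CPM against 6.24, 6.43 and 3.04 CPM (2.13 ± 0.51, edgeR adjusted p = 0.0268). Orm1 changed by 2.51 ± 0.60 and Timp1, an inhibitor of matrix metalloproteinases, by 1.35 ± 0.34 (edgeR adjusted p = 0.0241 and 0.0385). The list had 5 called members without treated replicate 1, none without treated replicate 2, and 1 or 2 without each of the other libraries. Of 26 chemokine genes, Cxcl17 and Ccl17 were called, and the median was 0.609.

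For B cell genes, treated replicates 2 and 3 lay below the other 4 libraries. The summed level of the 15 genes was 521, 523 and 583 CPM in the untreated lungs and 499, 238 and 238 CPM in the treated ones. Their median change was -0.783, 14 were below 0 and none was called in edgeR, against 1 in DESeq2. Without treated replicate 1, 11 of the 15 were called. Ms4a1, which encodes CD20, was at 38.4, 23.8 and 21.7 CPM against 21.7, 5.64 and 8.40 CPM (-1.23 ± 0.36, edgeR adjusted p = 0.0889). T cell genes had no call among 14 (median -0.12) and NK cell genes none among 12 (median -0.218).

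Mesothelial genes had 3 of 8 members called higher, Krt19 among them. Msln, mesothelin, was at 38.8, 26.2 and 35.5 CPM untreated and 33.8, 127 and 105 CPM treated (1.41 ± 0.32, edgeR adjusted p = 0.0188), and Upk3a, a uroplakin, was at 1.3, 0.901 and 1.56 CPM against 1.78, 8.49 and 8.06 CPM (2.28 ± 0.46, edgeR adjusted p = 0.0058). Treated replicate 1 was within the untreated range for Msln and Krt19, and close to it for Upk3a. The count was 3 without treated replicate 1, none without treated replicate 2 or untreated replicate 2, and 1 without each of the other 3 libraries. Krt8, Krt19, Msln and Upk3a are not specific to 1 epithelium, and the part of mesothelium in these values was not tested. Of 19 NRF2 targets Akr1b8, an aldo-keto reductase, was called (1.32 ± 0.23, edgeR adjusted p = 0.00118), and 18 were above 0 (median 0.435).

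**Figure D4:**
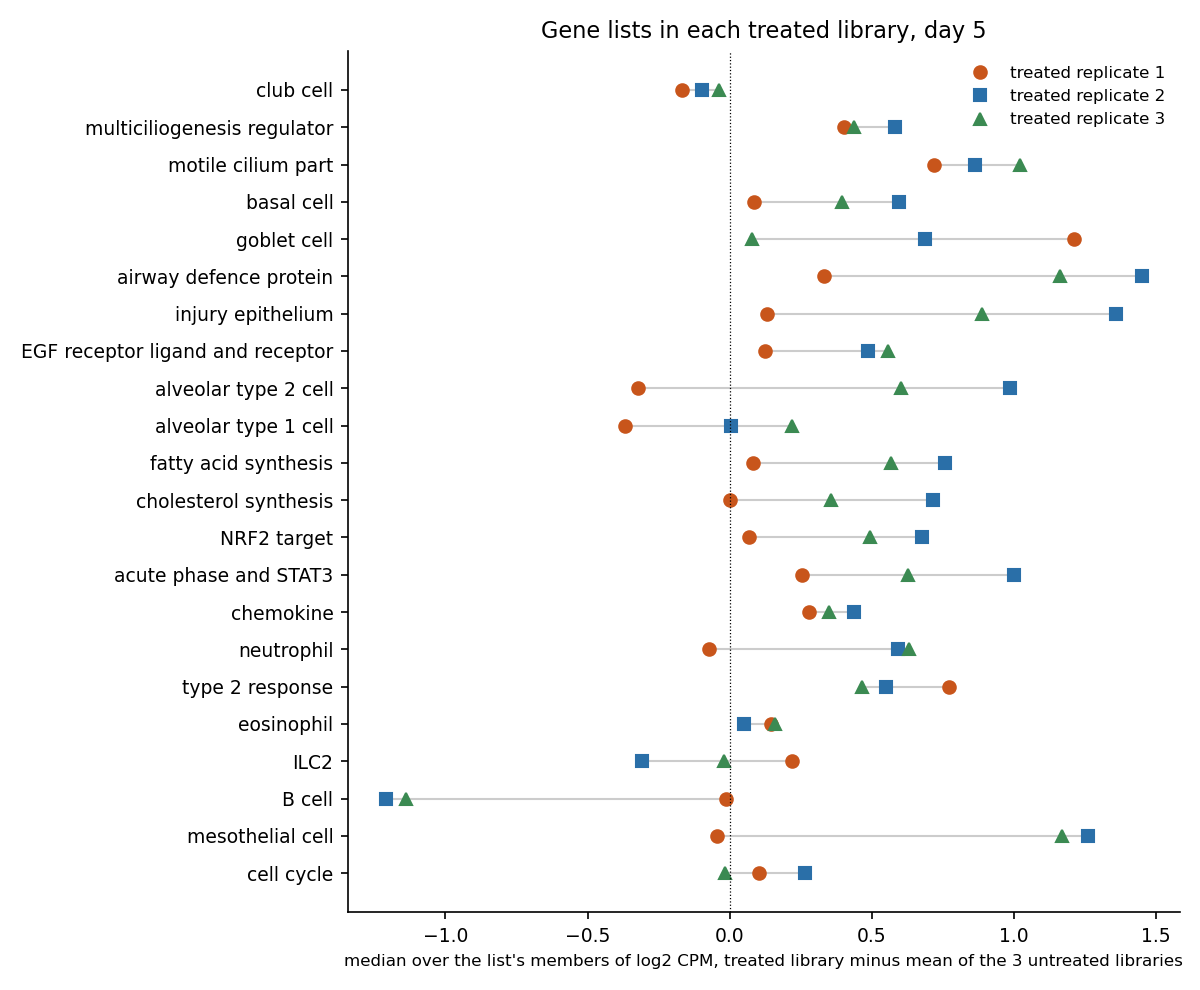
Median over a list's tested members of log2 (CPM + 0.5) in 1 treated library minus the mean of the 3 untreated libraries (x axis), for 22 gene lists (rows) and the 3 treated libraries (circle, square and triangle for replicates 1, 2 and 3). Treated replicate 1 lies near 0 for B cell (-0.0138), mesothelial (-0.0437) and cholesterol genes (0.00125) where the other 2 do not, and lies with them for motile cilium parts (0.718 against 0.863 and 1.02).

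Further increases by the naming rule were Ghrl, the precursor of the hormone ghrelin (0.911, 1.26 and 1.22 CPM against 5.53, 6.33 and 9.86 CPM, 2.66 ± 0.32, edgeR adjusted p = 4.45e-06), Itih4, a heavy chain of inter-alpha-trypsin inhibitors (24.8, 30.6 and 21.1 CPM against 41.7, 194 and 131 CPM, 2.26 ± 0.40, edgeR adjusted p = 0.00167), and Sncg, gamma-synuclein (2.24 ± 0.32, edgeR adjusted p = 9.29e-05). The remaining called genes with many reads were Gsto1, a glutathione transferase (1.24 ± 0.25), Cyp2s1, a P450 of airway epithelium (1.51 ± 0.20), Acot7, an acyl-CoA thioesterase (0.77 ± 0.19), and Tmprss2, an epithelial serine protease (0.59 ± 0.15), with edgeR adjusted p from 2.47e-05 to 0.0464. Tmprss2 held its call in 6 of 17 alternatives and was called without 1 of the 6 libraries only, treated replicate 1. Acot7 was called without 2 of the 6 libraries in turn, Gsto1 without 3 and Cyp2s1 without each of the 6. Beside club cell genes, the largest decreases included Apol11b (-2.17 ± 0.50), Zfp711 (-1.58 ± 0.32), P2ry10, a receptor of lymphocytes (-1.55 ± 0.35), Prdm8 (-1.51 ± 0.29), Apold1, a gene of endothelium (-1.44 ± 0.32), and Pcdh17, a protocadherin (-1.19 ± 0.26), with edgeR adjusted p from 0.00447 to 0.0172. Each of these 6 genes lost its call without treated replicate 2, and Zfp711 kept it without each of the other 5 libraries. Prdm8 was at 26.9, 42.3 and 25.7 CPM against 13.3, 10.2 and 9.81 CPM, and every treated library was below every untreated one. The haemoglobin genes were not called. In all, 26 of the 47 lists had no called member. None of 22 cell cycle genes was called (median 0.0513), nor any of 14 p53 targets (0.169), 25 interferon-stimulated genes (0.0627), 13 alveolar macrophage genes (0.443), 16 matrix genes of fibroblasts (0.215) or 12 endothelial genes (-0.0305).

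The same contrast at day 2 in the KO genotype had 565 called genes (2.74%) and shares no library with day 5. Its treated libraries carry the letter a and its untreated ones k or n. Letter and treatment thus cannot be told apart at day 2 either, nor in the difference between the days. Of the 272 genes called at day 5, 155 were also called at day 2 (57% of the day 5 and 27.4% of the day 2 calls), 154 in the same direction. The difference of the naphthalene effect, day 5 minus day 2, was called for 10 of 20606 genes (0.0485%), 9 of them with a higher value at day 5. Scgb3a2 fell at day 2, from 245, 407 and 559 CPM to 48.9, 95.1 and 51.0 CPM (-2.63 ± 0.37, edgeR adjusted p = 3.98e-05). At day 5 its change was 0.67 ± 0.35, and the effects of the days differed by 3.31 ± 0.51 (edgeR adjusted p = 0.00394). Of the other 9 genes, Mcidas, Ccno, Cdc20b and Foxn4 act in multiciliogenesis. Mcidas was at 1.24, 1.76 and 1.61 CPM untreated and 0.398, 0 and 0.176 CPM treated at day 2 (difference of effects 4.19 ± 0.74, edgeR adjusted p = 0.0132). Ccno changed by -0.86 ± 0.29 at day 2 without a call (difference 2.11 ± 0.39, edgeR adjusted p = 0.0271). Cdc20b and Foxn4, a transcription factor of multiciliogenesis, had 1 and 2 reads over the 3 treated lungs of day 2. Their fitted differences of 6.15 ± 1.09 and 5.26 ± 0.84 (edgeR adjusted p = 0.0132 and 0.00394) therefore depend on the prior count. Their pooled day 2 ratios, treated over untreated, were 0.0328 (95% interval 8e-04 to 0.199) and 0.061 (0.00705 to 0.241), which cover counting error only.

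No member of the motile cilium list was called for the difference between the days. The motile cilium list had 14 called higher at day 2 with a median of 1.02, against 11 and 0.983 at day 5. Foxj1 changed by 1.74 ± 0.38 at day 2 and 1.66 ± 0.38 at day 5 (difference -0.08 ± 0.52, edgeR adjusted p = 0.972). Scgb1a1 was at -3.95 ± 0.29 on day 2 and -2.23 ± 0.27 on day 5, a difference of 1.72 ± 0.37 that did not pass (edgeR adjusted p = 0.0906). Areg changed by 3.94 ± 0.41 at day 2 and 1.72 ± 0.37 at day 5, and Retnla by -2.37 ± 0.83 and 3.31 ± 0.86 (differences of -2.22 ± 0.54 and 5.68 ± 1.19, edgeR adjusted p = 0.179 and 0.0924). The Scgb3a2 difference held under all alternatives tried, while the count of 10 ran from 3 to 52 when single libraries were left out, with 3 without untreated replicate 2 of day 5, 52 without untreated replicate 1 of day 2 and 17 without treated replicate 2 of day 2.

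**Figure D5:**
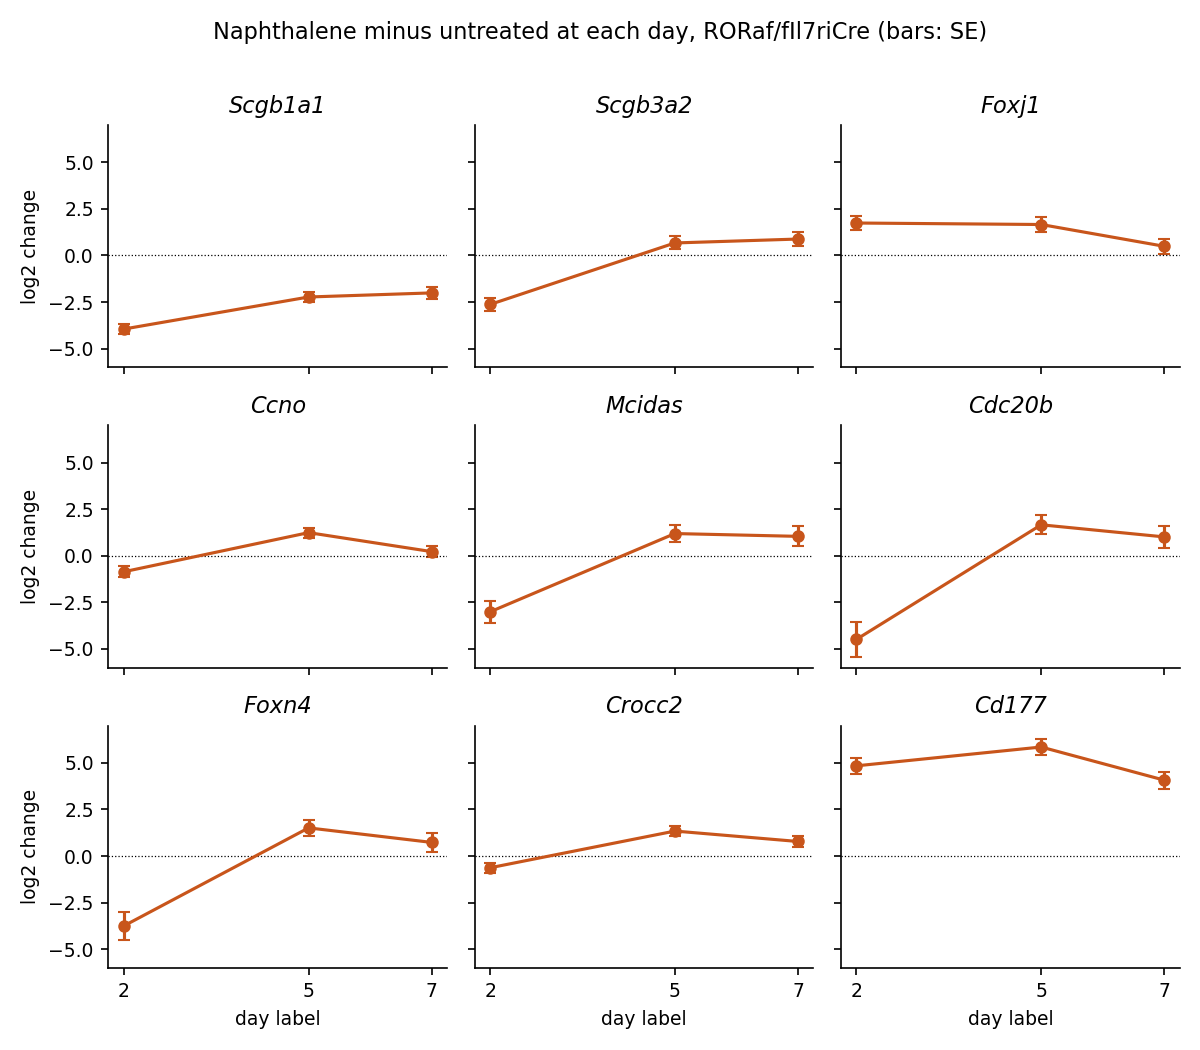
Log2 change, naphthalene minus untreated, at day labels 2, 5 and 7 (x axis) in RORaf/fIl7riCre lung for 9 genes, with points for the fitted change and bars for the SE (3 libraries per group, 2 for treated lungs of day 7), all on 1 scale. Mcidas, Cdc20b, Foxn4 and Scgb3a2 lie below 0 at day 2 and above 0 at day 5, whereas Foxj1 and Cd177 lie above 0 on both days.

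At day 7 the KO contrast, with 2 treated libraries, had 15 called genes (0.0728%), and 13 of them were among the 272 of day 5 (4.78% of the day 5 and 86.7% of the day 7 calls), all in the same direction. Treated and untreated libraries of day 7 all carry the letter p. The test of the difference, day 7 minus day 5, called none of 20606 genes (0%) in edgeR and none in DESeq2, with 941 genes at an unadjusted p below 0.05 and a smallest adjusted p of 0.855. Scgb1a1 changed by -2.01 ± 0.32 at day 7, Cd177 by 4.07 ± 0.45 and Agr2 by 3.99 ± 0.66, against -2.23 ± 0.27, 5.85 ± 0.45 and 3.35 ± 0.56 at day 5. Foxj1 changed by 0.49 ± 0.41 at day 7, and its difference from day 5 of -1.17 ± 0.56 did not pass (edgeR adjusted p = 0.855).

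The question of whether RORa loss in Il7r-expressing cells alters the response at day 5 is addressed by the difference of the naphthalene effects between genotypes. None of 20606 genes was called for it (0%) in edgeR, and none in DESeq2, with 1869 genes at an unadjusted p below 0.05 and a smallest adjusted p of 0.484. With 3 libraries per group, the lack of calls does not show that the genotypes respond alike. Without the filter on low counts 168 genes were called, 120 with a higher and 48 with a lower naphthalene effect in the KO genotype. That run also tests genes that the filter removes, and every other alternative tried called none. In control lungs 492 genes were called at day 5 (2.39%), and 93 of them were among the 272 of the KO genotype (34.2% of the KO and 18.9% of the control calls), 83 higher and 10 lower in both. Control libraries of day 5 carry the letter b when treated and f or o when untreated. Letter and treatment thus cannot be told apart there either. The letters also differ between the genotypes, as only treated replicate 2 of the KO genotype carries i. Untreated control replicate 1 stood apart in genes chosen after their values were seen. C1qa was at 288 CPM there against 25.7 and 34.3 CPM in the other untreated control lungs, and Cx3cr1 at 108 against 4.36 and 5.92 CPM. The Rn18s-rs5 share of this library was 3.76% of counts. Without this library the genotype difference again had 0 called genes, and the control count without it was not tested. Cd177 was at 2.69, 1.83 and 2.19 CPM in untreated control lungs and 62.0, 24.1 and 67.2 CPM in treated ones, a change of 4.51 ± 0.43 against 5.85 ± 0.45 in the KO genotype (difference 1.34 ± 0.58, edgeR adjusted p = 0.544). Scgb1a1 changed by -2.08 ± 0.27 in the control and -2.23 ± 0.27 in the KO genotype. Mcidas and Cdc20b were called in the control (2.39 ± 0.46 and 3.01 ± 0.55) and not in the KO genotype (1.19 ± 0.45 and 1.66 ± 0.52), which does not show that they differ. Retnla changed by 0.06 ± 0.78 in the control and 3.31 ± 0.86 in the KO genotype (difference 3.25 ± 1.13, edgeR adjusted p = 0.544). The smallest p belonged to Ltc4s, the leukotriene C4 synthase (difference 2.99 ± 0.68, edgeR adjusted p = 0.484), whose untreated control lungs spread from 3.09 to 29.5 CPM.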

How the data were processed

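RNA from whole lung was sequenced from libraries made with a Watchmaker Genomics mRNA kit, per the labels' protocols. The authors deposited 1 table of raw counts per gene for 57186 genes in 35 libraries of 12 groups (2 or 3 libraries each). The submitters' processing notes name GRCm39 and DESeq2 with no role, and for the aligner and counter the version and name are not given in the sources used. Totals ran from 10696690 to 21062713 counts (median 16159028).

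Genes were filtered with filterByExpr, which left 20606 genes holding at least 99.87% of the counts of each library. All 12 groups were fitted in edgeR 4.0.16 (R 4.3.3) with TMM scaling and the robust quasi-likelihood test, so that they share 1 estimate of the spread (a common coefficient of biological variation of 0.222, on 23 residual degrees of freedom). P-values were adjusted by Benjamini-Hochberg over all genes tested. DESeq2 1.42.0, limma 3.58.1 (voom), other scalings, no filter, smaller sets of libraries and leaving out single libraries were alternatives. The code was tested on simulated data.

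The text names the 15 largest increases and 10 largest decreases among called genes with a group mean of at least 5 CPM and no overlap between groups, the 10 called genes with the highest CPM, and, for each of 47 gene lists, called members and those with the smallest p per direction or the highest CPM. ILC2 and eosinophil members were always given. A few genes that the rule names are not reported here. The comparison, lists and rule were chosen with earlier results of these data known. Promoters were matched by symbol to a RefSeq table of GRCm38.p6, and no coordinates of GRCm39 were used. Intervals on pooled reads are exact at 95% and cover counting error only.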

Additional observations from a re-analysis of the deposited data

Results flagged for a closer look

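In 10 genes the naphthalene effect in the KO genotype differed between day 5 and day 2 by a test of the difference itself (edgeR's quasi-likelihood test, Benjamini-Hochberg adjustment). The log2 difference, day 5 minus day 2, was 3.31 for Scgb3a2, 5.26 for Foxn4, 4.19 for Mcidas, 6.15 for Cdc20b and 2.11 for Ccno, with the values given above. Ccna1, a cyclin, differed by 2.85 (edgeR adjusted p = 0.0346), from a change of -1.69 ± 0.42 at day 2 to 1.16 ± 0.35 at day 5. Crocc2, a rootletin-like protein, differed by 1.98, from -0.63 ± 0.28 to 1.34 ± 0.27. Rtp4, an interferon-stimulated gene, differed by 1.31, from -1.22 ± 0.18 to 0.09 ± 0.18. The unnamed gene 9630028I04Rik differed by 2.12, from -2.08 ± 0.32 to 0.03 ± 0.27. Gm15893 was the 1 gene with a lower value at day 5, differing by -3.34, from 1.42 ± 0.37 at day 2 to -1.92 ± 0.38 at day 5, where it was at 2.08, 1.62 and 1.22 CPM untreated and 0.356, 0.527 and 0.394 CPM treated.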

How the results depend on the processing

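The count of 272 genes called at day 5 was 635 with no filter on low counts, 444 in DESeq2, 107 with only the KO libraries, 24 with only the compared groups, 26 with only letters b and f in the KO day 5 groups, 104 with a replicate block within each day and genotype (chosen after seeing the data), and 68 to 903 when single libraries were left out. The count of 10 for day 5 minus day 2 was 130 with no filter, 30 in DESeq2, 1 with only the KO libraries, 1 with only the compared groups, 4 with letters b and f, 6 with the replicate block, 1 with the block within each day and genotype, and 3 to 52 without single libraries. The counts of 0 for the genotype difference and for day 7 minus day 5 were 168 and 58 with no filter. The cause of these shifts was not tested. With the replicate number as a block, 269 genes were called at day 5. Same-numbered libraries of the compared groups did not deviate together (r = -0.13, -0.34 and -0.3 over 16115 genes). For differently numbered libraries r ran from -0.23 to 0.49. The deviations were taken from the mean of each small group, so these values cannot decide whether libraries are paired. Of 65 named called genes, 63 kept their call without treated replicate 1, 29 without treated replicate 2, 35 with the block within each day and genotype and 15 with letters b and f, and 13 of 61 kept it with only the compared groups. No direction reversed in these alternatives. A single read is 0.0527 to 0.065 CPM, which limits genes at a few reads.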

Other observations

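The genes of this section were chosen after their values were seen. Hnf4a, Gp2, Psca, Krt20 and Krt4 had at most 3 reads in the untreated lungs and were called higher. Hnf4a, a transcription factor of gut and liver, had 0 reads in the untreated lungs and 55 in the treated ones, at 0.416, 1.27 and 1.35 CPM, which is at least 17.1-fold higher against a floor of 3 reads over the group, with an exact 95% lower limit of 13.5 for the ratio. Gp2, a glycoprotein of microfold cells, had 0 and 40 reads, at 0.772, 0.738 and 0.733 CPM in the treated lungs, at least 12.5-fold higher by the same floor, with a lower limit of 9.67. Psca, a surface protein of bladder and stomach, had 2 and 83 reads, a ratio of 38.8 (95% interval 10.4 to 325). Krt20 had 3 and 53 reads, a ratio of 16.5 (5.35 to 82.5), and Krt4 had 2 and 43, a ratio of 20.1 (5.23 to 171). These intervals leave out the spread between libraries. Krt4 held its call in 8 of 16 alternatives. It lost the call without treated replicates 2 and 3 and untreated replicates 2 and 3 in turn. Krt4 is the 1 called gene of the 8 in the list of oesophagus and squamous epithelium, of which 2 were tested. Sbsn was tested and not called (0.33 ± 0.26, edgeR adjusted p = 0.585), Krt13 had 19 reads over the 6 libraries, and Krt6a, Krt16, Krtdap and Sprr3 had 0. Treated replicate 1 was the lowest treated library for Hnf4a, Psca, Krt20 and Krt4, and the highest for Gp2.

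Mfsd2a, a lysolipid transporter, was at 0.195, 0.601 and 0.445 CPM untreated and 1.60, 7.27 and 5.24 CPM treated (3.47 ± 0.55, edgeR adjusted p = 4.13e-04). Itgb4, the integrin subunit of hemidesmosomes, was at 7.68, 5.65 and 10.7 CPM against 13.5, 36.4 and 20.1 CPM (1.54 ± 0.33, edgeR adjusted p = 0.0107). Tspo2, a gene of red cell precursors, was at 2.73, 3.48 and 4.00 CPM against 0.416, 1.53 and 1.07 CPM (-1.74 ± 0.40, edgeR adjusted p = 0.0171). The groups did not overlap in these 3 genes.

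Single libraries stood out within their group for a few genes. Cyp1a1, a target of the aryl hydrocarbon receptor, was at 12.6 CPM in untreated replicate 2 and at 0.195 and 0.111 CPM in the other untreated lungs. Ahrr, the repressor of that receptor, was at 1.02 CPM there against 0.26 and 0.111 CPM. Untreated control replicate 1 of day 5, the other library with the letter o, held Cyp1a1 at 12.8 CPM against 0 and 0.16 CPM in its group. Ahrr was at 0.582 CPM there against 0.141 and 0.693 CPM. At day 7, letter p, Cyp1a1 was at 19.5, 14.6 and 13.7 CPM in untreated control lungs and 3.09, 0.811 and 12.2 CPM in untreated KO lungs. The part of the letter was not tested. Treated replicate 1 held Glycam1 at 2.02 CPM against 0 in both other treated lungs, Slc26a4, an anion exchanger, at 2.14 CPM against 0.58 and 0.225 CPM, and Fer1l6 at 2.79 CPM against 0.369 and 0.394 CPM. Their causes were not tested.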
